A study of Homo sapiens with 30 samples.

Results

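MALAT1 and NEAT1 are long noncoding RNAs that stay in the cell nucleus. They were chosen by name, after the levels and organ differences of these data had been seen and with no threshold on a value, as 2 of the 38526 genes counted in a first experiment and 2 of the 36291 genes counted in a retransplantation experiment, with Ensembl row identifiers (ENSG00000251562 for MALAT1, ENSG00000245532 for NEAT1) matched to symbols. MALAT1 gathers in nuclear speckles, bodies rich in splicing factors, and is known for its link to metastasis: in mouse models of breast cancer it has been described both as promoting and as restraining it. NEAT1 is the scaffold of paraspeckles, nuclear bodies built on its long transcript and on RNA-binding proteins such as NONO and SFPQ. A short NEAT1 transcript from the same start carries a poly(A) tail, whereas MALAT1 and the long NEAT1 transcript end in a folded A-rich tail that is encoded in the genome.

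The cells were 2 subclones, 13 and 2, of MDA-MB-231, an established human triple-negative breast cancer line. They carried LeGO barcodes, lentiviral tags that tell clones apart, and were sorted from NSG mice, which lack T, B and NK cells. In the first experiment each subclone was sorted from the lung metastases, the liver metastases and the primary tumour of mice 1, 2 and 3, giving 6 groups of 3 samples. In the retransplantation experiment subclone 2 was sorted from samples labelled lung or liver metastasis of mice 4, 5 and 6, giving 2 groups of 3, and whether the label names the source of the cells or the organ they regrew in is not given in the sources used here. Each subclone is a single lineage of 1 cell line, the groups of an experiment share their mice, and every group was grown in mice, so none shows the level in culture. The sex and age of the mice and the site of injection are not given in the sources used here.

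In GENCODE v29 (GRCh38) both genes lie on the plus strand of chromosome 11. NEAT1 spans chr11:65422774-65445540 with 8 annotated transcripts, and MALAT1 spans chr11:65497688-65506516 with 17, beginning 52147 bases downstream of the end of NEAT1. The exons of each gene together cover its whole span, 22767 bases for NEAT1 and 8829 bases for MALAT1, and the short NEAT1 transcript holds 3441 bases. Of 8 small or antisense genes annotated within or next to them, 0 had a row in either table, and neither did the antisense RNA TALAM1. The library kit does not mark strand, so reads of an antisense partner would be part of these counts.

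The 3′ ends are shown because they are what sets this pair apart from ordinary mRNAs: RNase P cuts each precursor just upstream of a small tRNA-like RNA, and U-rich stretches then fold on the A-rich tail. The last 120 bases before the tRNA-like RNA are given for MALAT1 (chr11:65505997-65506116) and for the long NEAT1 transcript (chr11:65445421-65445540), from GENCODE v29 transcripts, as DNA letters on the plus strand. Capitals mark the stretches of at least 10 bases that are identical in both windows.
MALAT1: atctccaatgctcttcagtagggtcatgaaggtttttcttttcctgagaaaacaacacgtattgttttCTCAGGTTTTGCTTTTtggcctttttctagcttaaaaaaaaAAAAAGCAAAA
NEAT1: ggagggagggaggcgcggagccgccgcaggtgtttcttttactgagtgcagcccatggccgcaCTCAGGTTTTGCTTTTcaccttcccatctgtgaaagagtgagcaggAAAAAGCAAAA
The windows shared 2 such stretches, of 16 bases (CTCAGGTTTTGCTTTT) and of 11 bases (AAAAAGCAAAA), and the shorter one formed the very 3′ end of both. In a global alignment 77 of 120 bases (64.2%) were identical. The longest run of A was 13 bases in MALAT1 and 5 bases in NEAT1, and A and T made up 66.7% of the MALAT1 window and 45% of the NEAT1 window.

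The 18 samples of the first experiment held 11.8 to 82.2 M counts and the 6 retransplantation samples 23.4 to 32.3 M (M, 1e+06). MALAT1 had 1690 to 56915 counts per sample in the first experiment and NEAT1 1011 to 99928. Markers of the cell line (VIM, CD44, KRT18, CAV1, AXL and MSN, 6 of 6 with a row) summed to 6050 to 12900 CPM (counts scaled to a library of 1e+06) in the first experiment and to 6060 to 10800 in the second. Of the host organs, hepatocyte markers (6 of 8 with a row) summed to 30.3 to 99.3 CPM in lung, 29.5 to 230.0 in liver and 61 to 227 in tumour samples, mostly SERPINA1 (27.8 to 222 CPM). ALB, the defining hepatocyte gene, reached at most 0.756 CPM. The 6 lung epithelium markers summed to 2.81 to 9.98 CPM in lung, 2.64 to 11.1 in liver and 2.24 to 9.22 in tumour samples, with SFTPC at no more than 0.213 CPM. These ranges overlapped between organs. The sum of 5 endothelial markers, mostly PECAM1, did not overlap between lung (12.1 to 18.3 CPM) and liver (19.7 to 41.8 CPM). CDH5, VWF, KDR and TEK reached at most 1.57, 0.747, 4.21 and 2.6 CPM. In the retransplantation samples the endothelial sum overlapped (19.9 to 28.2 CPM in lung and 9.25 to 22.5 CPM in liver). The hepatocyte markers did not overlap there (13.5 to 27.1 CPM in lung and 37.9 to 76.4 CPM in liver). How many of all genes did not overlap between these groups is not given here. The part of host cells, or of mouse Malat1 and Neat1 reads, in the results was not tested. In such bulk samples less RNA per cell and fewer expressing cells cannot be told apart.

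MALAT1 differed 17.1-fold and NEAT1 29.8-fold between the lowest and the highest of the 18 samples, on CPM scaled by trimmed mean of M-values (TMM). In mice 1, 2 and 3, MALAT1 stood at 203, 815 and 597 CPM in subclone 13 from lung. It stood at 153, 476 and 907 CPM in subclone 13 from liver and at 64.7, 336 and 147 CPM in subclone 13 from tumour. The tumour was the lowest of the 3 organs in every mouse. In subclone 2 MALAT1 stood at 305, 1014 and 1105 CPM in lung, 123, 709.7 and 275 CPM in liver and 105, 538 and 283 CPM in tumour. Here lung was the highest organ in every mouse, while liver and tumour lay close together in mice 1 and 3. Ordered by mean log2 CPM (± SD, n = 3 each), MALAT1 ran from subclone 2 lung (9.45 ± 1.04) through subclone 13 lung (8.85 ± 1.05), subclone 13 liver (8.66 ± 1.3), subclone 2 liver (8.17 ± 1.27) and subclone 2 tumour (7.98 ± 1.19) to subclone 13 tumour (7.2 ± 1.19). No gap between neighbours in this order (at most 0.772) was larger than the SD of either.

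NEAT1 stood at 323, 1508 and 1146 CPM in subclone 13 from lung of mice 1, 2 and 3. It stood at 99.99, 327 and 602 CPM in subclone 13 from liver and at 76.8, 908 and 406 CPM in subclone 13 from tumour. Lung was the highest organ in every mouse. In subclone 2 NEAT1 stood at 486, 1864 and 939.6 CPM in lung, 65.3, 448 and 266 CPM in liver and 62.6, 836 and 313 CPM in tumour. All 3 lung samples of subclone 2 lay above all 3 of its liver samples, the only organ pair of the first experiment in which either gene did not overlap. How many of all genes also did not overlap between these groups is not given here. Ordered by mean log2 CPM, both lung groups came first (9.89 ± 0.969 in subclone 2 and 9.69 ± 1.19 in subclone 13). The other 4 groups followed between 8.25 ± 1.82 in subclone 13 tumour and 7.63 ± 1.44 in subclone 2 liver. The gap of 1.43 below the lung groups was larger than the SD of subclone 13 lung and smaller than that of subclone 13 tumour, and the other gaps (at most 0.358) were within the spread.

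**Figure D1:**
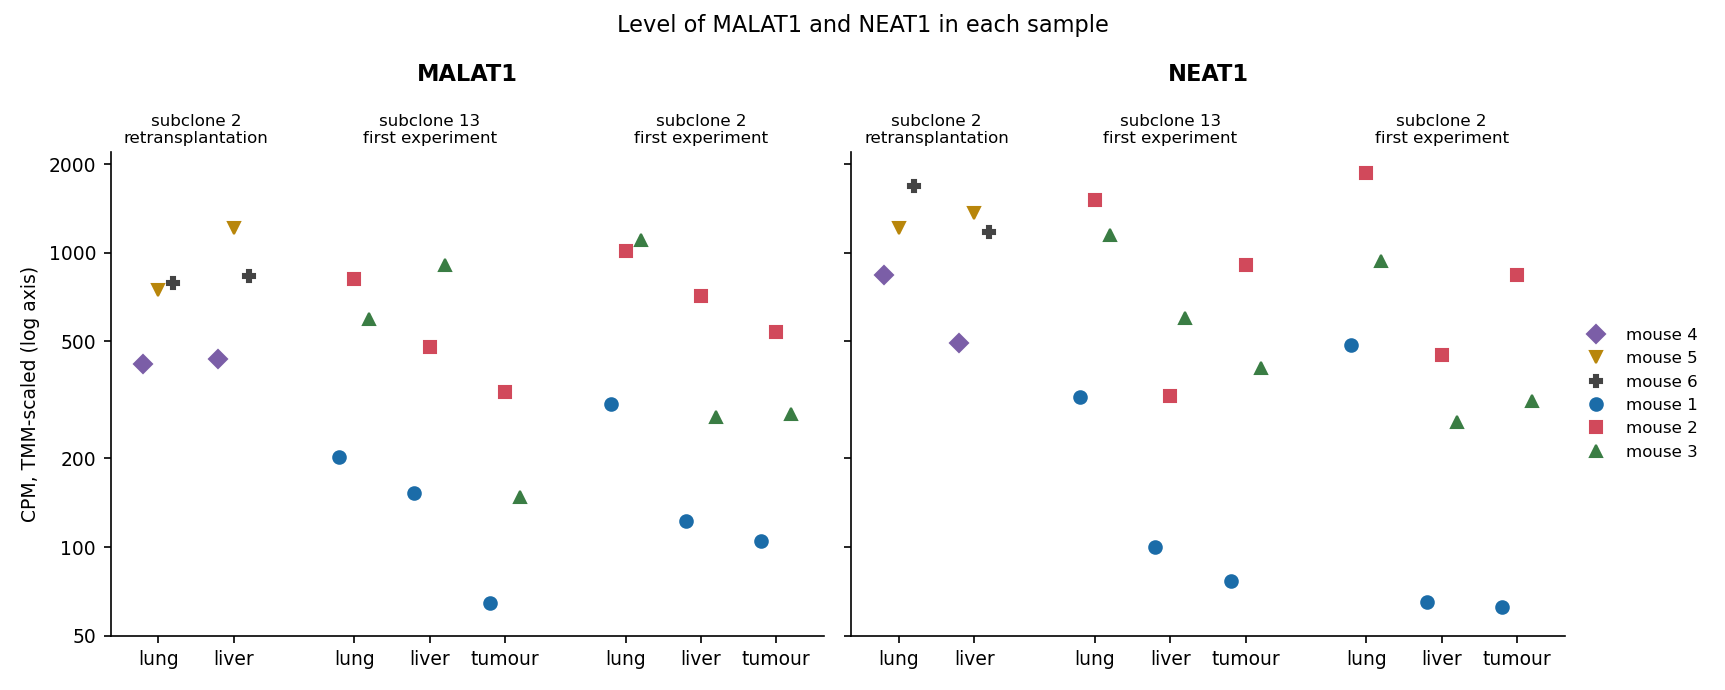
Each point is 1 sample: the y axis gives TMM-scaled CPM on a log scale, the x axis the organ, with retransplanted subclone 2 left, subclone 13 in the middle and subclone 2 of the first experiment right, and the marker the mouse. Mouse 1 is the lowest point in every group of the first experiment, for MALAT1 (64.7 to 305 CPM) and for NEAT1 (62.6 to 486 CPM).

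Which of the pair had more counts per base depended on the length used for NEAT1. Over the whole span, MALAT1 had more CPM per kb than NEAT1 in 16 of 18 samples of the first experiment and in 6 of 6 retransplantation samples. With all NEAT1 counts assigned to the short transcript, NEAT1 had more in 18 of 18 and 6 of 6. In subclone 13 lung of mouse 2, for example, MALAT1 had 92.3 CPM per kb, and NEAT1 66.3 over the whole span or 438 over the short transcript. Counts per gene do not separate the transcripts. How fully the library preparation captured a poly(A) tail or an A-rich genomic tail was not tested. These values thus compare counts, not amounts of RNA in the cell.

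Both RNAs were lowest in mouse 1. In the 6 samples of mouse 2 MALAT1 ranged from 336 to 1014 CPM (median 624), in mouse 3 from 147 to 1105 (median 440.0) and in mouse 1 from 64.7 to 305 (median 138). NEAT1 ranged from 327 to 1864 CPM in mouse 2 (median 872), from 266 to 1146 in mouse 3 (median 504) and from 62.6 to 486 in mouse 1 (median 88.4). Mouse 1 was the lowest of the 3 mice for both genes in 6 of 6 groups. In an edgeR fit with group and mouse, MALAT1 was higher in mouse 2 than in mouse 1 by 2.16 ± 0.22 on the log2 scale (adjusted p = 1.72e-06) and higher in mouse 3 than in mouse 1 by 1.68 ± 0.218 (adjusted p = 1.35e-05), each ± standard error (SE). For NEAT1 the edgeR differences were 2.69 ± 0.265 for mouse 2 (adjusted p = 1.22e-06) and 2.01 ± 0.257 for mouse 3 (adjusted p = 1.17e-05). These contrasts were chosen after mouse 1 was seen to be low, and the background was high: 17.1% of the 17418 genes tested were called higher in mouse 2 and 18.9% in mouse 3. Each contrast sets 1 mouse against 1 other and treats the 6 samples of a mouse as replicates. Its p does not measure the spread between mice. The contrasts of mouse 2 and of mouse 3 share mouse 1 as reference, so calls in both are not independent. The share of all genes called in both, here and below, is not given. Between mouse 3 and mouse 2, where 0.85% of genes were called in either direction, neither gene passed (-0.47 ± 0.216 for MALAT1, adjusted p = 0.3, and -0.68 ± 0.251 for NEAT1, adjusted p = 0.197, edgeR).

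Mice 1, 2 and 3 were sequenced in different runs, but subclone 13 of mouse 1 had 3 libraries per organ, 1 in each of runs 1, 2 and 3. In lung these gave 207, 191 and 185 CPM of MALAT1, in liver 161, 142 and 137 CPM and in tumour 63.6, 60.9 and 58.3 CPM. NEAT1 gave 323, 299 and 299 CPM in lung, 109.8, 91.8 and 93.8 CPM in liver and 72.1, 72.8 and 73.5 CPM in tumour. The highest of 3 libraries was at most 1.2 times the lowest for either gene. Within run 2 or run 3, mouse 2 or mouse 3 exceeded mouse 1 by 2.45-fold to 6.68-fold for MALAT1 and by 3.42-fold to 12.4-fold for NEAT1, over 6 pairs each. In subclone 13 the low level of mouse 1 was thus also seen among libraries of the same run. For subclone 2 all samples of a mouse came from 1 run, so mouse and run cannot be told apart there.

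**Figure D2:**
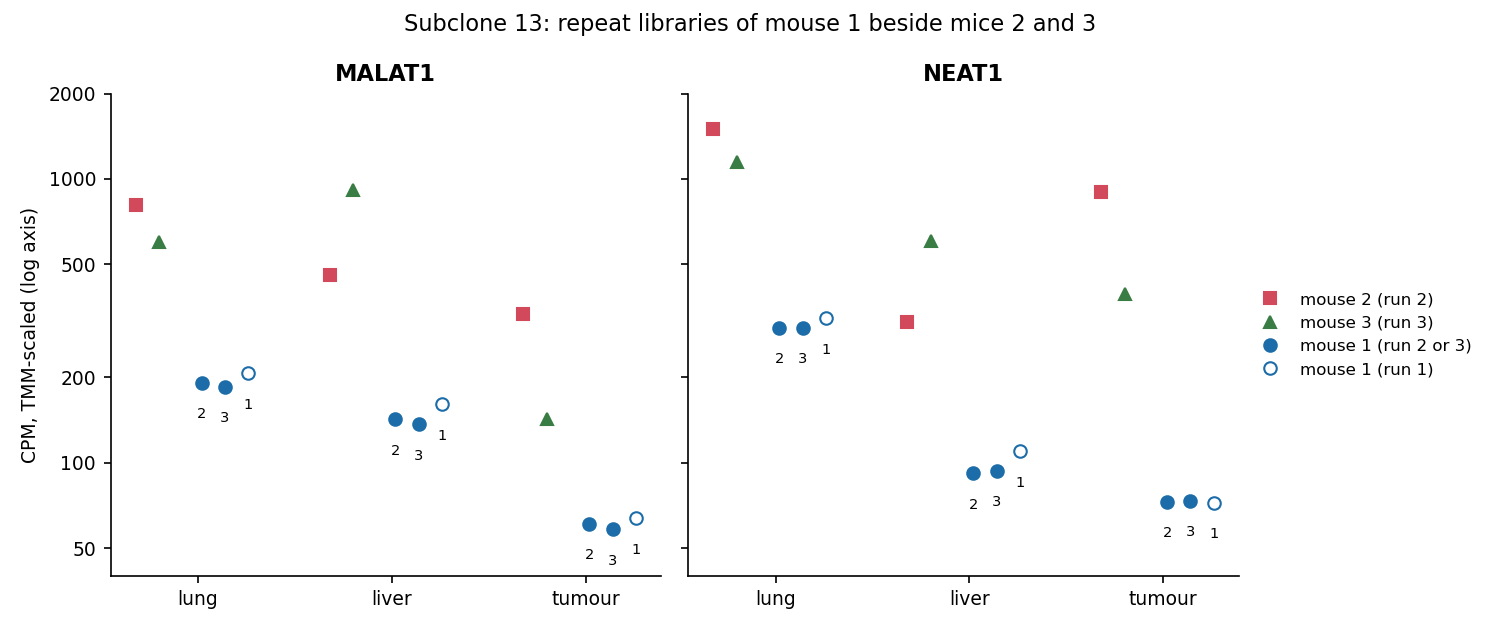
Subclone 13 only: TMM-scaled CPM (log axis) of single libraries by organ, with mouse 2 (run 2) and mouse 3 (run 3) left of the 3 repeat libraries of mouse 1, whose run is printed under each point. The 3 libraries of mouse 1 differ by at most 1.2-fold, while mice 2 and 3 exceed the mouse 1 library of their own run by 2.45-fold or more.

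Lung metastases held more of both RNAs than the primary tumour of the same mouse, in both subclones and in every mouse. In subclone 13 the lung to tumour fold of MALAT1 was 3.14, 2.42 and 4.05 in mice 1, 2 and 3, and that of NEAT1 was 4.2, 1.66 and 2.82. In subclone 2 it was 2.92, 1.88 and 3.9 for MALAT1 and 7.77, 2.23 and 3.0 for NEAT1. The direction was the same in 3 of 3 mice each time, but the groups overlapped, since mouse 1 lung lay below mouse 2 tumour for both genes.

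In the edgeR fit without a mouse term, the one set out for these comparisons, neither gene passed an adjusted p of 0.05 in lung against tumour. In subclone 13 MALAT1 differed by 1.56 ± 0.784 (log2 ± SE, adjusted p = 0.692) and NEAT1 by 1.10 ± 0.923 (adjusted p = 0.947, edgeR), where 0.419% of genes were called. In subclone 2 MALAT1 differed by 1.39 ± 0.78 (adjusted p = 0.64) and NEAT1 by 1.44 ± 0.93 (adjusted p = 0.715, edgeR), where 0.436% were called. With mouse as a block, which pairs the samples of a mouse, the biological coefficient of variation fell to 0.257, against 0.626 without it, for MALAT1 and to 0.295, against 0.733, for NEAT1. Both genes were then called higher in lung in both subclones. In subclone 13, where 0.764% of genes were called higher, the blocked values were 1.62 ± 0.305 for MALAT1 (adjusted p = 0.00642) and 1.40 ± 0.354 for NEAT1 (adjusted p = 0.0367, edgeR). In subclone 2, where 1.23% were called higher, they were 1.48 ± 0.305 for MALAT1 (adjusted p = 0.0106) and 1.90 ± 0.362 for NEAT1 (adjusted p = 0.00604, edgeR). The pair was chosen with results of these data known, so these p-values describe the fit and are not independent evidence.

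Leaving out each mouse and each sample of the groups compared, 9 settings per result, kept all of these blocked differences positive but not all the calls. MALAT1 in subclone 13 was called in 7 of 9 (1.44 to 1.81), not without mouse 1 or without the tumour of mouse 3. NEAT1 in subclone 13 was called in 2 of 9 (1.11 to 1.76), those without mouse 2 and without its tumour. MALAT1 in subclone 2 was called in 4 of 9 (1.18 to 1.74), not without mouse 1, without mouse 3, without the lung of mouse 3 or without the tumour of mouse 1 or 3. NEAT1 in subclone 2 was called in 6 of 9 (1.3 to 2.35), not without mouse 1, without mouse 3 or without the tumour of mouse 1. The difference between the subclones in lung against tumour was 0.17 ± 1.08 for MALAT1 and -0.34 ± 1.29 for NEAT1 (adjusted p = 1 for both, edgeR).

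Mitochondrially encoded mRNAs moved with the lung samples too. Their 13 genes took 8.56, 9.62 and 9.71% of counts in subclone 13 lung, against 2.86, 3.25 and 3.45% in its tumours, and 8.53, 8.90 and 8.43% in subclone 2 lung, against 2.84, 3.95 and 3.1% in its tumours. Of the 13 mRNAs, 8 were called higher in lung than in tumour in each subclone without a mouse term and 13 with the block. Over all genes the shares called higher were 0.149% in subclone 13 and 0.184% in subclone 2 without a mouse term. With the block they were 0.764% and 1.23%. Liver samples of the first experiment lay at 3.68 to 4.36% in subclone 13 and 3.1 to 4.85% in subclone 2. Whether the mitochondrial share had a part in the levels of MALAT1 or NEAT1 was not tested. Over all organs of a mouse the share ranged from 3.25 to 9.62% in mouse 2, from 3.1 to 9.71% in mouse 3 and from 2.84 to 8.56% in mouse 1. These ranges overlapped, but they pool organs that differ. Of the 13 mRNAs, 0 were higher and 3 lower than in mouse 1 in both other mice. Over all genes 17.3% were called lower in mouse 2 and 17.9% in mouse 3, and the share lower in both is not given here.

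MALAT1 was higher in liver metastases than in the tumour of the same mouse in 3 of 3 mice of subclone 13 and in 2 of 3 of subclone 2. The liver to tumour fold of MALAT1 in subclone 13 was 2.36, 1.42 and 6.15 in mice 1, 2 and 3. In subclone 2 it was 1.17, 1.32 and 0.973. NEAT1 showed no common direction: its liver to tumour fold was 1.3, 0.36 and 1.48 in subclone 13 and 1.04, 0.535 and 0.85 in subclone 2. Without a mouse term neither gene passed in either subclone: in subclone 13 MALAT1 differed by 1.49 ± 0.782 (adjusted p = 0.946) and NEAT1 by -0.44 ± 0.914 (adjusted p = 1, edgeR), where 0.385% of genes were called. In subclone 2 MALAT1 differed by 0.26 ± 0.766 and NEAT1 by -0.64 ± 0.916 (adjusted p = 1 for both, edgeR), where 0.287% were called. With mouse as a block MALAT1 in subclone 13 was called higher in liver (1.54 ± 0.308, adjusted p = 0.0108, edgeR), where 0.431% of genes were called higher. It was called in 5 of 9 settings that left out a mouse or a sample (0.867 to 1.96), not without mouse 1, without mouse 3 or without the liver or the tumour of mouse 3. Without mouse 3 the difference was 0.867, and NEAT1 passed in neither subclone with the block. In subclone 2, where the block called 1.68% of genes, MALAT1 differed by 0.23 ± 0.298 (adjusted p = 0.816, edgeR). The test of the difference between the subclones gave 1.23 ± 1.09 for MALAT1 (adjusted p = 1) and 1.31 ± 0.427 with the block (adjusted p = 0.9, edgeR), where 0.00574% of genes were called, so the subclones were not shown to differ. Without a mouse term the MALAT1 difference was 0.274 when mouse 3 was left out and 2.27 when mouse 2 was left out.

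NEAT1 was higher in lung than in liver metastases of the same mouse in 3 of 3 mice of both subclones. In subclone 2 NEAT1 was 7.45, 4.16 and 3.53 times as high in lung as in liver in mice 1, 2 and 3, and in subclone 13 it was 3.23, 4.62 and 1.9 times as high. MALAT1 was 2.49, 1.43 and 4.01 times as high in lung in subclone 2. In subclone 13 its lung to liver fold was 1.33, 1.71 and 0.658, with the direction turned in mouse 3. Without a mouse term NEAT1 differed by 2.08 ± 0.948 in subclone 2 (adjusted p = 0.504) and by 1.53 ± 0.933 in subclone 13 (adjusted p = 1, edgeR), and 0.023% and 0% of genes were called. The same fit gave 1.13 ± 0.775 for MALAT1 in subclone 2 (adjusted p = 0.724) and 0.07 ± 0.766 in subclone 13 (adjusted p = 1, edgeR). In subclone 13 no gene was called by edgeR, with 792 of 17418 at an unadjusted p under 0.05, and DESeq2 called 59 genes, neither of the pair. The lung samples also had the higher mitochondrial share and the lower endothelial marker sum given above, whose part in the result was not tested.

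With mouse as a block both genes were called higher in lung than in liver in subclone 2, where 1.63% of genes were: NEAT1 by 2.33 ± 0.365 (adjusted p = 0.00274) and MALAT1 by 1.25 ± 0.304 (adjusted p = 0.0305, edgeR). In this fit 0.132% of the tested genes had a p as small as that of NEAT1, against 8.31% without a mouse term. For NEAT1 in the retransplantation samples the share with the block was 33.1%. The pair was chosen with results known, so these shares are descriptions. NEAT1 was called in 9 of 9 settings that left out a mouse or a sample (1.88 to 2.56), whereas MALAT1 was called in 1 of 9 (0.893 to 1.66), that without the liver of mouse 2. In subclone 13, where 0.189% were called higher, neither gene passed: NEAT1 differed by 1.49 ± 0.355 (adjusted p = 0.0811) and MALAT1 by 0.08 ± 0.299 (adjusted p = 0.956, edgeR). NEAT1 in subclone 13 passed in 1 of 9 settings, that without the liver of mouse 3 (1.99, adjusted p = 0.0382, edgeR). The differences between the subclones did not pass in either fit (for NEAT1 -0.54 ± 1.29, for MALAT1 -1.06 ± 1.09, adjusted p = 1 for both, edgeR).

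**Figure D3:**
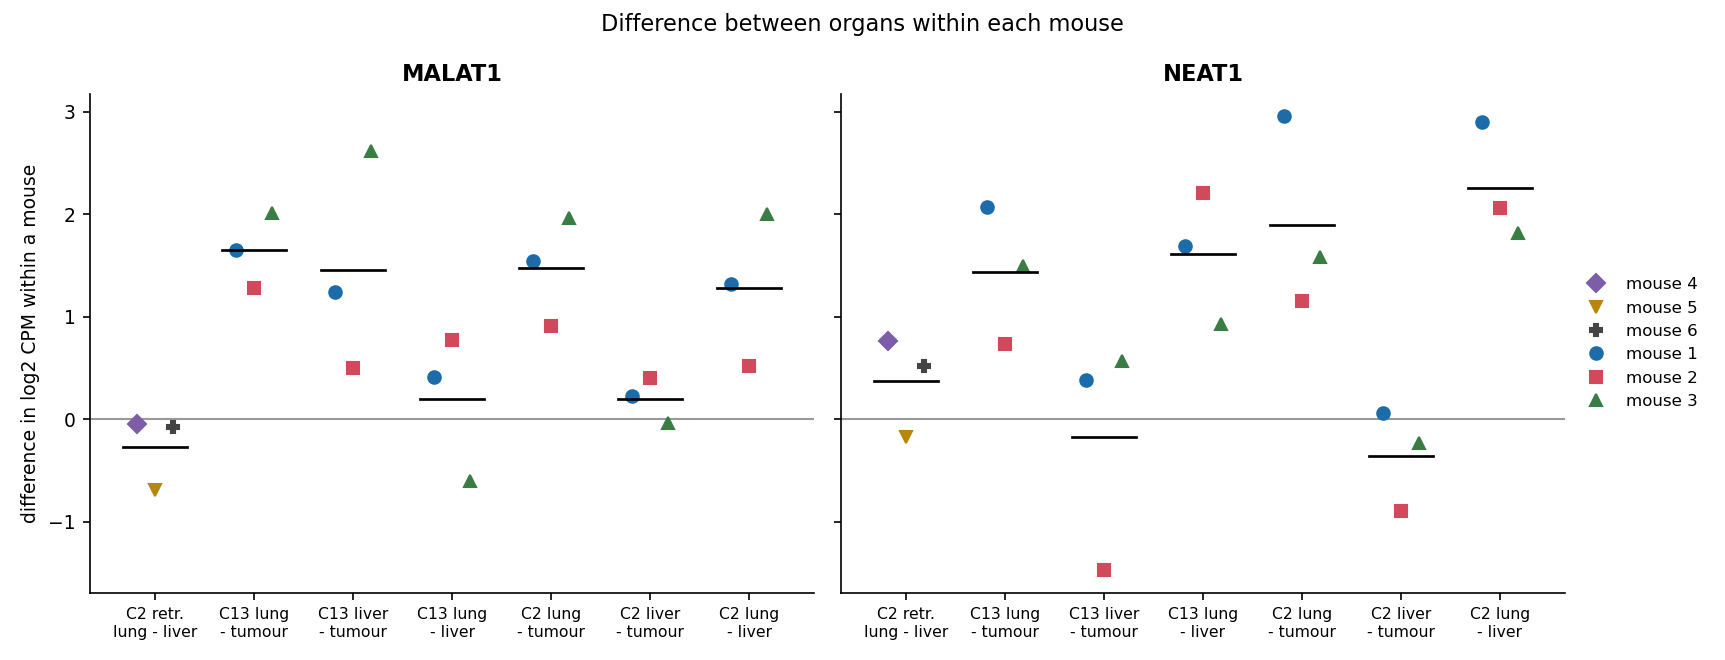
Each point is the difference in log2 CPM between 2 organs of the same mouse and subclone, the first named organ minus the second, and the bar is the mean of 3 mice; C13 and C2 are subclones 13 and 2, and retr. is retransplantation. For both genes every lung minus tumour point lies above 0 (0.913 to 2.02 for MALAT1, 0.733 to 2.96 for NEAT1), and for NEAT1 so does every lung minus liver point of the first experiment (0.929 to 2.90).

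The ratio of NEAT1 to MALAT1 counts within a sample does not depend on the scaling between libraries. In subclone 13 it was 1.59, 1.85 and 1.92 in lung of mice 1, 2 and 3, against 0.655, 0.686 and 0.663 in liver. The lung ratio was thus 2.43, 2.7 and 2.89 times that of liver, and the groups lay far apart. The SDs over mice were 0.143 in lung and 0.0342 in liver on the log2 scale, beside SDs over 1 for each gene alone. Over the 3 repeat libraries of mouse 1 the SD of this ratio was 0.0304 in lung and 0.0494 in liver. In liver the spread over mice was thus no larger than that between libraries of 1 mouse. Subclone 13 tumours had ratios of 1.19, 2.70 and 2.75, also above all liver ratios. In subclone 2 the ratio was 1.59, 1.84 and 0.851 in lung, 0.533, 0.631 and 0.965 in liver and 0.598, 1.55 and 1.10 in tumour. There mouse 3 went against the other mice, with a lung ratio below its liver ratio. In the retransplantation samples the ratio was 1.99, 1.62 and 2.13 in lung against 1.13, 1.13 and 1.41 in liver of mice 4, 5 and 6, again with no overlap and 1.76, 1.44 and 1.51 times as high in lung. Lung exceeded liver in 8 of 9 pairs of samples from the same mouse and subclone. These ratios of counts are descriptions with no test, and whether both RNAs were captured equally well was not tested.

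**Figure D4:**
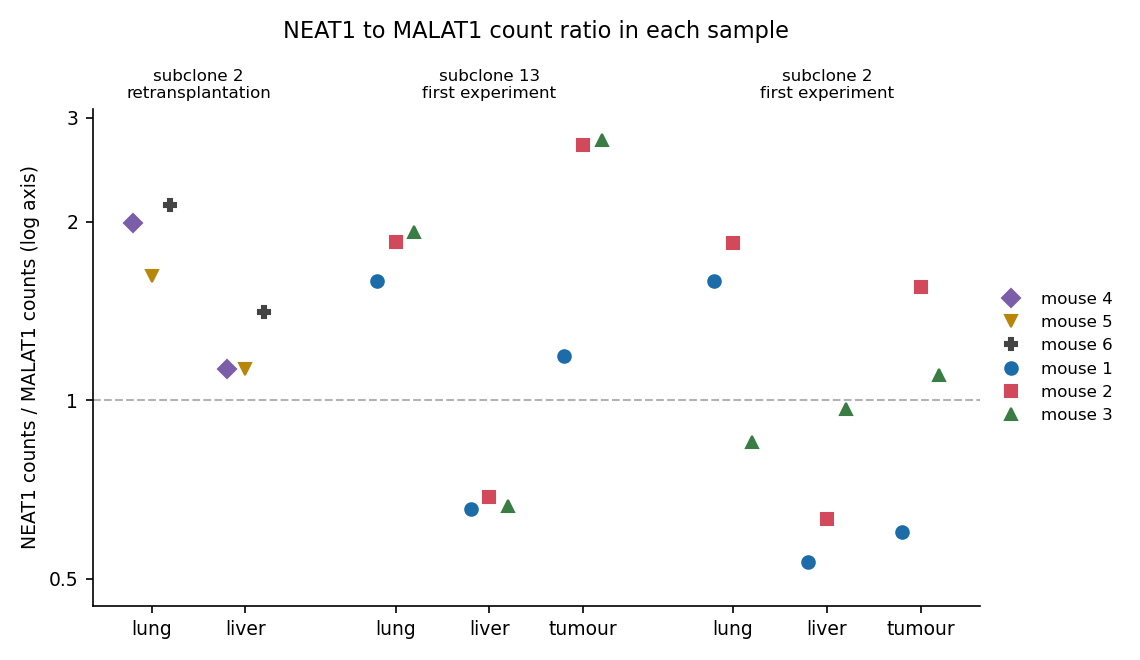
NEAT1 counts divided by MALAT1 counts in each sample, on a log axis, by organ, with retransplanted subclone 2 left, subclone 13 in the middle and subclone 2 of the first experiment right. In subclone 13 the 3 liver samples lie at 0.655 to 0.686 and all lung and tumour samples above 1, and in the retransplantation samples lung (1.62 to 2.13) lies above liver (1.13 to 1.41).

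Subclones 13 and 2 were not called different in either gene. In tumours MALAT1 was lower in subclone 13 than in subclone 2 in 3 of 3 mice, at 0.618, 0.625 and 0.52 times the level, and in lung in 3 of 3 mice, at 0.664, 0.804 and 0.54 times. In liver it was 1.25, 0.671 and 3.29 times that of subclone 2. NEAT1 was 1.23, 1.09 and 1.3 times as high in subclone 13 tumours, and it had no common direction in lung (0.663, 0.809 and 1.22) or liver (1.53, 0.729 and 2.26). The edgeR differences without a mouse term were -0.76 ± 0.771 in tumour, -0.59 ± 0.768 in lung and 0.47 ± 0.767 in liver for MALAT1, and 0.20 ± 0.912, -0.14 ± 0.912 and 0.40 ± 0.914 for NEAT1, with an adjusted p of 1 for each. Leaving out 1 sample moved the MALAT1 difference to between -1.54 (without the subclone 13 tumour of mouse 2) and -0.0707 (without the subclone 2 tumour of mouse 2), and in lung to between -1.01 and -0.18 (without the subclone 13 lung of mouse 2 or of mouse 1). There 0.109% of genes were called in tumour, 0.184% in lung and 0.247% in liver. The MALAT1 difference in tumour was -0.75 ± 0.299 with mouse as a block (adjusted p = 0.423, edgeR), and no subclone difference of either gene passed with the block, which called 0.505% of genes in tumour, 1.54% in lung and 1.5% in liver.

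In the retransplantation experiment MALAT1 lay between 420.15 and 1211 CPM and NEAT1 between 491 and 1687 CPM. In mice 4, 5 and 6 MALAT1 stood at 420.15, 749.5 and 790.2 CPM in lung and at 435, 1211 and 834 CPM in liver, lower in lung in 3 of 3 mice. NEAT1 stood at 837, 1215 and 1687 CPM in lung and at 491, 1367 and 1175 CPM in liver, higher in lung in 2 of 3 mice. The groups overlapped for both genes. Lung against liver gave -0.34 ± 0.389 for MALAT1 (adjusted p = 0.757) and 0.30 ± 0.403 for NEAT1 (adjusted p = 0.798), where edgeR called 0% of 17549 genes, with 2198 at an unadjusted p under 0.05, and DESeq2 called 403 genes, neither of the pair. With mouse as a block, where 0.479% were called, neither passed (-0.27 ± 0.21 for MALAT1, adjusted p = 0.559, and 0.37 ± 0.238 for NEAT1, adjusted p = 0.475, edgeR).

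The lung to liver difference of subclone 2, retransplantation minus first experiment, was -1.42 ± 1.03 for MALAT1 (adjusted p = 0.917) and -1.73 ± 1.21 for NEAT1 (adjusted p = 0.913) in an edgeR fit over both tables, where 0.00507% of 19721 genes were called. With mouse as a block the differences were -1.50 ± 0.415 (adjusted p = 0.142) and -1.93 ± 0.488 (adjusted p = 0.114, edgeR), where 0.071% were called, so neither passed. The mitochondrial share was 5.17, 9.66 and 9.90% in retransplanted lung, against 5.62, 7.01 and 5.76% in retransplanted liver, so those groups overlapped as well.

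MALAT1 and NEAT1 were compared over samples. Over the 18 samples of the first experiment Pearson's r of their log2 CPM was 0.864 (Spearman's rho 0.87), and 0.841 without the 2 samples farthest from the median of MALAT1. The samples share mice and subclones, so no p is given. With the mean of each mouse removed r was 0.68 (rho 0.664). Within mice 1, 2 and 3 it was 0.861, 0.496 and 0.731, over 6 samples each. In the 6 retransplantation samples r was 0.793, but 0.0417 without the 2 samples of mouse 4, so it rested on that mouse. With the mean of each mouse removed r was 0.0601 (rho -0.257), which rests on only 3 lung to liver differences.

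Other nuclear noncoding RNAs were looked at beside the pair. Of 10 further nuclear long noncoding RNAs 7 were tested, and 0 passed in any comparison of organs or subclones, with or without the block. Over all genes at most 3.05% were called in any of these comparisons. The median change of the 7 in lung against tumour with the block was 0.56 in subclone 13 and 0.53 in subclone 2, against 0.02 and 0.05 over all genes. MIAT went the other way, at -1.571 ± 1.12 (SE) in subclone 13 and -2.375 ± 1.11 in subclone 2. JPX was at -0.22 ± 0.428 in subclone 13 and 0.12 ± 0.432 in subclone 2, and the others were fitted above 0. KCNQ1OT1, an imprinted antisense RNA that silences genes around it, had 10.9 ± 5.01 CPM in lung and 5.12 ± 2.98 CPM in tumour of subclone 13, and 18 ± 9.02 CPM in lung and 9.3 ± 8.74 CPM in tumour of subclone 2 (SD, n = 3 each). TUG1, found in nucleus and cytoplasm, had group means of 186 to 211 CPM. Against mouse 1, 5 of the 7 were higher in mouse 2 and 3 in mouse 3, beside 17.1% and 18.9% of all genes. FTX, KCNQ1OT1 and LINC-PINT were higher in both (for KCNQ1OT1 by 1.72 ± 0.259 and 1.01 ± 0.256, adjusted p = 1e-04 and 0.00495, edgeR). The share of all genes higher in both is not given here.

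Host genes of small nucleolar RNAs are noncoding transcripts that carry these RNAs in their introns. In lung against tumour 14 of 14 were fitted above 0 in both subclones. The share of all genes fitted above 0 is not given here. The blocked medians of the list were 0.63 in subclone 13 and 0.75 in subclone 2, against 0.02 and 0.05 over all genes. Without a mouse term 1 of 14 passed, SNHG8 in subclone 2. With the block SNHG8 (0.93 ± 0.206, adjusted p = 0.0184, edgeR) and SNHG32 passed in subclone 13. SNHG1, SNHG3, SNHG8 (1.31 ± 0.209, adjusted p = 0.00151, edgeR) and SNHG15 passed in subclone 2, and 0 of 14 were lower. The block called 0.764% of all genes higher in subclone 13 and 1.23% in subclone 2. In lung against liver the block called SNHG8 in subclone 13 and SNHG1, SNHG3, SNHG12 and SNHG15 in subclone 2, all higher, beside 0.189% of all genes in subclone 13 and 1.63% in subclone 2. In the retransplantation samples 0 of 14 passed, and the median was -0.15 with the block. Against mouse 1, 6 of 14 were higher and 0 lower in mouse 2, beside 17.1% and 17.3% of all genes, and 8 were higher and 2 lower in mouse 3, beside 18.9% and 17.9%.

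Speckle proteins and SR splicing factors belong to the bodies in which MALAT1 gathers. Of 21 mRNAs, 14 were higher and 0 lower in mouse 2 than in mouse 1, where 17.1% of all genes were called higher and 17.3% lower. In mouse 3, 12 were higher and 1 lower, beside 18.9% and 17.9% of all genes. The median log2 difference of the list was 0.62 in mouse 2 and 0.64 in mouse 3, against 0.03 and 0.05 over all genes. The contrasts share mouse 1, and the share of all genes higher in both is not given here. The 12 higher in both mice included SRRM2, the scaffold protein of speckles (0.62 ± 0.152 in mouse 2 and 0.76 ± 0.151 in mouse 3). They also included the splicing factor SRSF5 (1.28 ± 0.146 and 1.39 ± 0.146), the RNA helicase DDX39B (1.37 ± 0.18 and 1.81 ± 0.183) and LUC7L3, a splicing factor (1.47 ± 0.175 and 1.42 ± 0.175). The adjusted p of these 4 was at most 0.00448 (edgeR). By organ, where at most 3.05% of all genes were called in either fit, none of the 21 passed without a mouse term. With the block SRSF7 passed in lung against tumour (0.57 ± 0.146, adjusted p = 0.0365, edgeR), and SRSF5 and the kinase CLK4 passed in lung against liver, all in subclone 2 and all higher.

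Of 22 mRNAs of paraspeckle proteins, many of which bind NEAT1, 3 were higher and 3 lower in mouse 2 than in mouse 1, where 17.1% of all genes were called higher and 17.3% lower. In mouse 3, 4 were higher and 2 lower, beside 18.9% and 17.9% of all genes, so these counts were at or below the background. HNRNPH1 (1.12 ± 0.135 and 1.06 ± 0.135) and MATR3 (1.88 ± 0.331 and 1.49 ± 0.338) were higher in both, with an adjusted p of at most 0.00232 (edgeR). The core proteins NONO, PSPC1 and RBM14 passed in none of the comparisons, and SFPQ only in mouse 3 against mouse 1 (0.33 ± 0.115, adjusted p = 0.0291, edgeR). By organ, where at most 3.05% of all genes were called in either fit, 1 of 22 passed. It was HNRNPH1 in subclone 13 lung against tumour with the block (0.74 ± 0.189, adjusted p = 0.0386, edgeR). The median of the 22 in lung against tumour was -0.07 in subclone 13 and -0.02 in subclone 2 with the block.

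**Figure D5:**
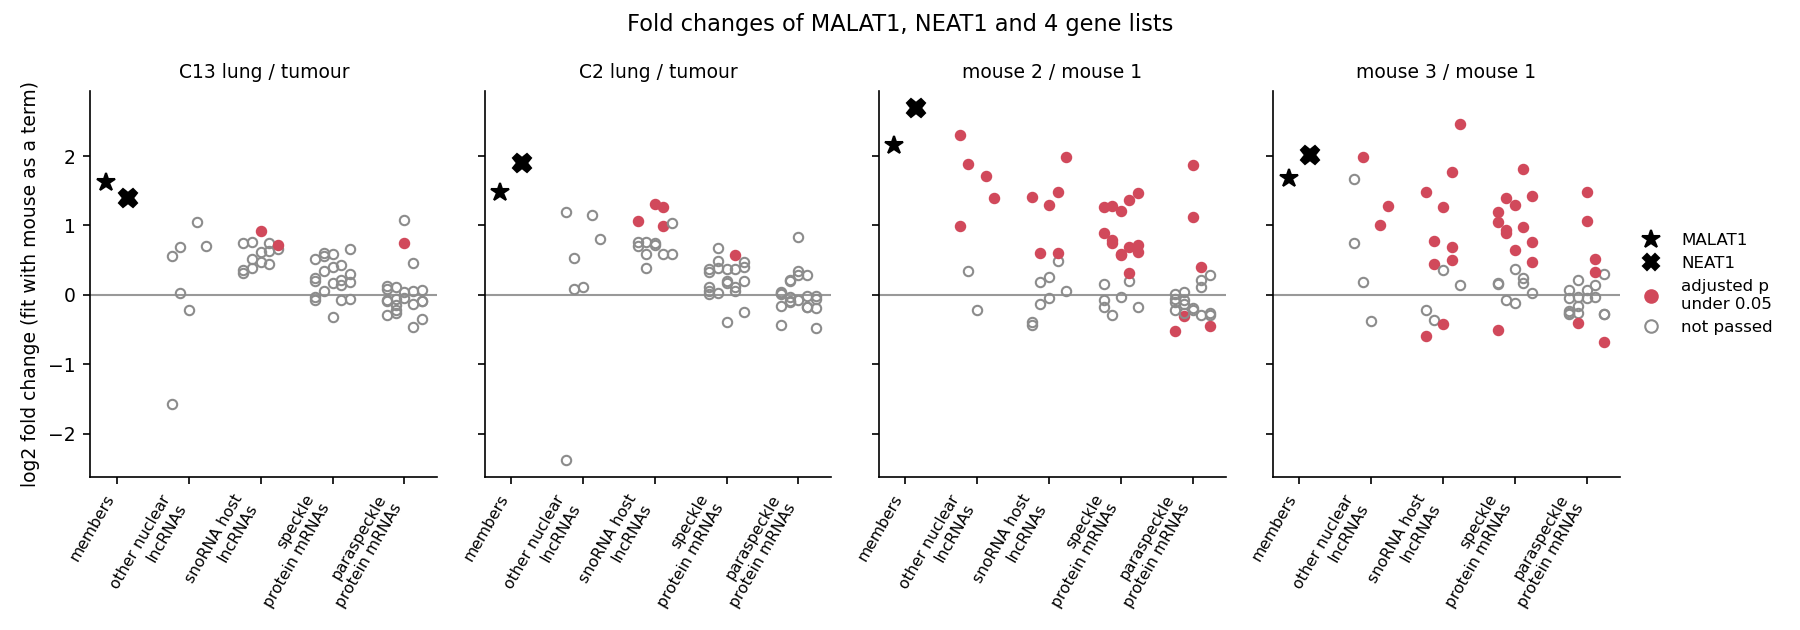
Log2 fold changes from the edgeR fit with mouse as a term, for MALAT1, NEAT1 (black, all past the threshold) and the tested members of 4 gene lists, in lung against tumour of subclones 13 and 2 and in mice 2 and 3 against mouse 1; filled red points passed an adjusted p of 0.05. Of the speckle protein mRNAs 14 of 21 are higher in mouse 2 and 12 of 21 in mouse 3, beside 17.1% and 18.9% of all genes. In lung against tumour 0 and 1 of 21 pass in subclones 13 and 2, beside 2.89% and 3.05% of all genes.

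The genes that mature or turn over these RNAs, the neighbours of the locus and the regulators were read beside the share of all genes called by organ, which was at most 3.05% in either fit. Of 14 genes for RNase P, RNase Z, the triple-helix binding protein METTL16 and nuclear decay, 0 passed in any comparison of organs or subclones in either fit. Against mouse 1, 1 was higher and 3 lower in mouse 2, and 1 was higher and 7 lower in mouse 3, among them the RNase P subunits POP4, POP7 and RPP25, lower in both. Over all genes 17.1% were higher and 17.3% lower in mouse 2, and 18.9% and 17.9% in mouse 3. Of 17 protein-coding neighbours, 1 passed by organ, LTBP3, a binding protein of latent TGF-beta, higher in subclone 13 liver than in tumour with the block (0.87 ± 0.216, adjusted p = 0.0424, edgeR). Between mice, 0 of the 17 neighbours were higher and 3 lower in mouse 2, and 2 were higher and 1 lower in mouse 3, where the shares over all genes were those given above. Of 8 transcription factors described as regulators of the pair, 1 passed by organ, the hypoxia factor EPAS1, known to act on NEAT1. EPAS1 had 33.3 ± 4.21 CPM in lung, 37.7 ± 8.68 in liver and 74.6 ± 7.84 in tumour of subclone 13 (SD, n = 3 each). There it differed from tumour by -1.15 ± 0.22 in lung (adjusted p = 0.00678) and -0.996 ± 0.219 in liver (adjusted p = 0.0198) with the block (edgeR). In subclone 2 it did not pass, at -0.33 ± 0.218 in lung (adjusted p = 0.471) and -0.85 ± 0.22 in liver (adjusted p = 0.0565) with the block (edgeR). Of the 8 regulators, 0 were higher and 2 lower than in mouse 1 in both other mice.

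The genes most like each RNA over the 18 samples, by r of log2 CPM with the mean of each mouse removed, among 10926 genes with a mean of at least 5 CPM, were listed as a description. For MALAT1 they were ID3 (r = 0.912), ZNG1E (0.895), KCNQ1OT1 (0.882), CSNK1E (0.855), SLC47A1 (0.853), ELF3 (0.85), CRACR2B (0.843) and KAZALD1 (0.841), and NEAT1 ranked 120. Over the 6 retransplantation samples, also with mouse means removed, 6 of these 8 kept a positive r. It was 0.858 for CRACR2B, 0.661 for KAZALD1 and 0.552 for KCNQ1OT1, but -0.62 for ID3. With these means removed, lung and liver of a mouse mirror each other, so each such r rests on only 3 differences. The share of all genes with a positive r is not given here. For NEAT1, 7 such genes were EIF4A1 (r = 0.933), MT-ND6 (0.906), CCDC9 (0.897), MT-ND5 (0.889), SPACA6 (0.887), KLHDC4 (0.885) and WDR74 (0.885), and MALAT1 ranked 212. In the retransplantation samples, with the same limit, 6 of these 7 had a positive r, with 0.965 for SPACA6 and 0.774 for WDR74, but -0.755 for EIF4A1. MT-ND6 and MT-ND5 encode subunits of respiratory complex I and belong to the mitochondrial share described above. EIF4A1, KCNQ1OT1 and SPACA6 overlap 5, 5 and 4 other genes, and ZNG1E has near-identical copies, so their counts are uncertain.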

How the data were processed

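RNA of sorted MDA-MB-231 subclones was sequenced after TruSeq RNA v2 library preparation, per the labels. The submitters' processing notes name featureCounts, STAR, cutadapt, bcl2fastq (version 2.15.0.4) and the build GRCh38, with no role or order; the gene annotation is not given in the sources used here. The deposited values are raw read counts per gene made by the authors, 1 column per library, in 2 tables. For subclone 13 of mouse 1 the 3 libraries of each organ are technical replicates per the deposited sample sheet, which also gives the sequencing runs, and were summed, so 30 libraries gave 24 samples.

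Counts were filtered (filterByExpr), scaled by TMM and tested with edgeR's quasi-likelihood test, version 4.0.16 (R 4.3.3), with Benjamini-Hochberg adjustment over all genes tested (17418, 17549 and, for both tables together, 19721) and a threshold of 0.05. All groups of an experiment shared 1 fit, and 14 comparisons were made. Each SE was obtained from the fold change and its F statistic. Likeness between genes used log2 CPM with a prior count of 2. Equal numbers in the labels name 1 mouse and so pair its samples. Deviations of paired samples correlated with a median of 0.359 over 45 pairs (lowest 0.152) in the first experiment and of 0.304 in the second. The fit with mouse as an additive block was an alternative, as were DESeq2 1.42.0, RLE size factors, library totals only, no filter, only the groups compared, single libraries of mouse 1 and leave-outs. Fits were also run on simulated data with no difference between mice, for comparisons of subclone 2 only. Their outcome is not given here, and they cannot show how the block handles the level of a mouse. Alignment used Biopython 1.88.

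Both genes and the 8 gene lists were chosen with earlier results of these data known. The genes named are the pair, the 8 genes most like each (those with a symbol; 1 of them is not reported here), and list members that passed or that a sentence needs. Nothing says that samples of a group are more than separate mice. Without a mouse term the p-values measure the spread between these mice. With mouse as a block they measure the spread left after each mouse has its own level. In the contrasts between mice the samples of a mouse act as its replicates. Those p-values do not measure the spread between mice.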

Additional observations from a re-analysis of the deposited data

How the results depend on the processing

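No call of either gene was made by DESeq2 (which called 59 genes against 0 by edgeR in subclone 13 lung against liver, and 403 against 0 in the retransplantation samples), RLE size factors, library totals only, only the groups compared or single libraries of mouse 1. Calls came from 2 settings. With mouse as a replicate block (paired by mouse) MALAT1 passed in lung against tumour (1.62 in subclone 13, 1.48 in subclone 2), subclone 13 liver against tumour (1.54) and subclone 2 lung against liver (1.25), and NEAT1 in lung against tumour (1.40 and 1.90) and subclone 2 lung against liver (2.33). With no filter on low counts MALAT1 passed in lung against tumour (1.52 in subclone 13, 1.37 in subclone 2) and subclone 13 liver against tumour (1.47), and NEAT1 in lung against liver (1.52 in subclone 13, 2.05 in subclone 2) and subclone 2 lung against tumour (1.43). The cause was not tested. The share of all genes called with no filter is not given here. These calls are thus not read as a second support for those with the block. The block raised the calls over all genes in lung against tumour to 503 against 73 in subclone 13, and to 532 against 76 in subclone 2.

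Leaving out a mouse or a sample turned the sign only of uncalled differences. For MALAT1 these ranged from -0.463 to 1.42 for subclone 13 against 2 in liver, -0.40 to 0.796 for subclone 13 lung against liver (with the block -0.219 to 0.651), -0.634 to 0.966 for subclone 2 liver against tumour (block -0.0646 to 0.467) and -0.645 to 0.0255 in the retransplantation samples. Differences between subclones ranged from -2.22 to 0.0774 in lung against liver and -0.51 to 0.958 in lung against tumour. For NEAT1, subclone 13 against 2 ranged from -0.33 to 1.08 in liver, -0.573 to 0.483 in lung and -0.739 to 1.33 in tumour. Liver against tumour ranged from -1.25 to 0.514 in subclone 13 (block -0.588 to 0.456) and -1.29 to 0.509 in subclone 2 (block -0.681 to 0.011), and the retransplantation samples from -0.0274 to 0.599. Differences between subclones ranged from -0.95 to 1.14 in liver against tumour, -1.19 to 0.19 in lung against liver and -1.47 to 0.601 in lung against tumour. Leave-outs in the blocked fit and the contrasts between mice were added after seeing the data. Of the 7 calls with the block, that of NEAT1 in subclone 2 lung against liver alone was kept in 9 of 9 leave-outs.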
